A study of Mus musculus with 8 samples.

Results

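The genes described here are Tnf, the 5 genes of the NF-kB transcription factor family (Rela, Rel, Relb, Nfkb1 and Nfkb2), the inhibitor genes Nfkbia, Nfkbiz and Tnfaip3, and Ptgs2. They were chosen by name and make up 10 of 39290 gene names, on 13 rows of the table. All 10 were among the 14418 genes tested. The samples were 8 mouse RNA sequencing libraries, 4 titled model and 4 titled high dose, from a study of Platycodin D, a plant saponin, in mice with experimental lung fibrosis. The strain, age and sex of the mice, the way fibrosis was produced, the dose and the duration are not given in the sources used here. No untreated group is analysed here, and the labels do not say outright that the high dose mice carried the same model. Columns coded QH belong to samples titled model and columns coded QM to samples titled high dose. The letters could also be read as H for high dose and M for model, the opposite of the titles, and that reading would turn every direction. Every direction given here rests on the titles, and no gene was targeted whose level could check the assignment. The labels name lung tissue and also a mouse lung fibroblast line (MLF). Markers of alveolar epithelium, endothelium, leukocytes and fibroblasts were detected in all 8 libraries, as in whole lung tissue. The labels do not tell whether each library is 1 animal, so the p-values reflect variation among libraries that could be partly technical.

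NF-kB is a dimer of Rel family proteins that waits in the cytoplasm, bound by inhibitors of the IkB family. Signals from the TNF receptor, the interleukin 1 receptor and Toll-like receptors activate the IkB kinase, the inhibitor is degraded and the dimer enters the nucleus. A second, slower route processes the precursor made from Nfkb2 and releases dimers that contain RelB. Among the genes that NF-kB switches on are its own brakes, Nfkbia and Tnfaip3, so transcripts of these inhibitors are often read as a trace of recent pathway activity. In the lung the pathway acts in alveolar macrophages, neutrophils, epithelium and vessel walls.

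Start-site windows were at hand for 7 of the 10 genes. Each covers 300 bases, from 250 before to 50 after an annotated start (RefSeq, build GRCm38.p6). Nfkb1, Relb and Nfkbiz had no entry. The windows were searched on both strands for 1 form of the NF-kB site, GGG followed by any 2 bases and TTTCC. It lay in 535 of all 32851 windows of that length (1.63%) and in windows of 4 of the 7 genes, Nfkbia, Tnfaip3, Rel and Nfkb2. Tnfaip3 has 2 windows, and the one not shown (chr10:19011914-19012213, minus strand) has no match. Nfkb2 has 3, and the 2 overlapping windows not shown share another match. Windows of Tnf, Rela and Ptgs2 did not contain these letters, which says nothing of other forms of the site or of places outside the window. The windows of Nfkbia and Tnfaip3 (inhibitors that were lower in the high dose group mean), of Nfkb2 (higher in mean) and of Ptgs2 (higher) are printed 5′ to 3′ on the gene's strand. Nfkbia and Ptgs2 are shown because they passed the test described next, and Tnfaip3 and Nfkb2, which did not pass, as an inhibitor and a subunit gene with a match. Rel, which has a match too, is not shown. Capitals mark the match. It is read on the opposite strand in Nfkbia (GGGAATTTCC, bases -29 to -20 from the start) and in Tnfaip3 (GGGGATTTCC, -12 to -3), and on the gene's own strand in Nfkb2 (GGGGCTTTCC, -11 to -2). The positions are chr12:55492598-55492897 on the minus strand for Nfkbia, chr10:19015361-19015660 on the minus strand for Tnfaip3, chr19:46304487-46304786 on the plus strand for Nfkb2 and chr1:150099781-150100080 on the plus strand for Ptgs2.
Nfkbia: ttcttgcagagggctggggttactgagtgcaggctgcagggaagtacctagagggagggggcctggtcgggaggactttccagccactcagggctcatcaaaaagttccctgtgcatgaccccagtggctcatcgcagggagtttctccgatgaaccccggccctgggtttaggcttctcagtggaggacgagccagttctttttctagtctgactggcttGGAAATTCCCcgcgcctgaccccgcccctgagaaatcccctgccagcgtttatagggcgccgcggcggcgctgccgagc
Tnfaip3: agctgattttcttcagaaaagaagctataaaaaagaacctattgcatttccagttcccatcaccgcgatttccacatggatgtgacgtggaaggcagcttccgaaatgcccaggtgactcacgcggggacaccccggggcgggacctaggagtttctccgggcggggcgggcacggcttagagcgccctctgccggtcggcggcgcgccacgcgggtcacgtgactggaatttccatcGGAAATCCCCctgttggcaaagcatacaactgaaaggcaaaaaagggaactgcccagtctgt
Nfkb2: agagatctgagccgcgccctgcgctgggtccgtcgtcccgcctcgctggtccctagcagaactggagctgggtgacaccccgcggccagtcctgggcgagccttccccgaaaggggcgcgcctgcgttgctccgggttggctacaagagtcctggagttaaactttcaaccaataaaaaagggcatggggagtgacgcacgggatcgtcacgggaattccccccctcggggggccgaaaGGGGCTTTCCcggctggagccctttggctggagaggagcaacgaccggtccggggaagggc
Ptgs2: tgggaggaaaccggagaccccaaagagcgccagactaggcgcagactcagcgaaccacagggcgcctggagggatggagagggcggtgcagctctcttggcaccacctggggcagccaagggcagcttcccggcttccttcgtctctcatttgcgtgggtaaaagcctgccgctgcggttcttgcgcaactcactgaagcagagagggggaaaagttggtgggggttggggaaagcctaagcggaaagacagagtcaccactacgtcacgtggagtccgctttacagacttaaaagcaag

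High dose was set against model to see how transcripts of the pathway differed with treatment. Nfkbia was lower and Ptgs2 was higher in the high dose libraries. No subunit gene passed the test, and neither did Tnf, Nfkbiz or Tnfaip3, although the last 3 had lower means in high dose. Thus 1 of the 10 genes rose, 1 fell and 8 did not pass, at an adjusted p under 0.05 over all genes tested (limma on log2(FPKM + 1)). Over all genes tested, 10.1% passed in either direction, 5.86% higher and 4.27% lower, so 2 of 10 is not far from that background. The 4 and 4 libraries did not overlap for 4 of the 10 (Rela, Nfkb2 and Ptgs2 higher, Nfkbia lower), against 17.7% of all genes (11.3% higher, 6.46% lower). Of the 10 genes 6 had an unadjusted p under 0.05, against 25.6% of all genes. The median log2 fold change was -0.01 over the 10 genes and 0.04 over all genes tested.

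**Figure D1:**
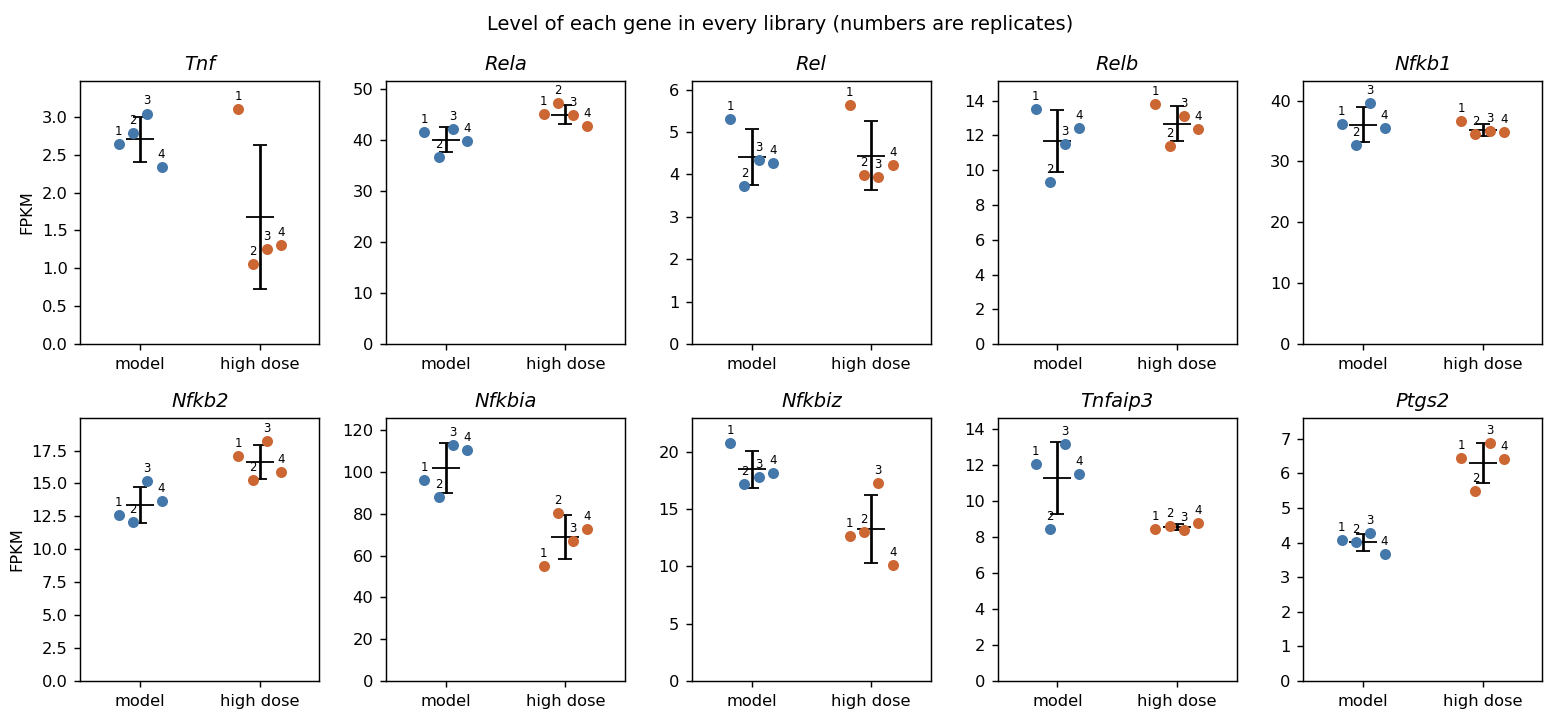
FPKM of each of the 10 genes (y axis, from 0) in the 4 model libraries (blue) and the 4 high dose libraries (orange). Points are libraries with their replicate number, and the bars give mean and SD. Nfkbia is lower and Rela, Nfkb2 and Ptgs2 are higher in all 4 high dose libraries, while high dose replicate 1 has the highest Tnf value of all 8.

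Nfkbia encodes IkB-alpha, the inhibitor that holds NF-kB in the cytoplasm and is resynthesised after each activation. Its level was 96.3, 87.9, 113 and 111 FPKM in model replicates 1 to 4 and 55.1, 80.4, 66.9 and 72.7 FPKM in high dose replicates 1 to 4. All 4 high dose libraries lay below all 4 model libraries, and high dose replicate 1 was the lowest. The model mean was 102 ± 11.8 and the high dose mean 68.8 ± 10.7 FPKM (SD, n = 4 per group). Nfkbia fell by 0.57 ± 0.13 (log2, SE, limma adjusted p = 0.0298). Its adjusted p rose above 0.05 without model replicate 1 (0.0626), model replicate 3 (0.0876), model replicate 4 (0.0721), high dose replicate 1 (0.0615), high dose replicate 3 (0.0809) or high dose replicate 4 (0.0616). In these 6 fits the log2 fold change lay between -0.60 and -0.47, and in the fits without model replicate 2 or high dose replicate 2, which passed, it was -0.63 and -0.64. Markers of some leukocytes, not of all, were lower in high dose as well. Of 10 neutrophil markers 9 fell, none was at 0, and their summed level was 1140 to 2826 FPKM in model and 121 to 460 FPKM in high dose. High dose replicate 1, lowest in Nfkbia, also had the lowest sums of neutrophil, natural killer cell and monocyte markers. In model, replicate 4 had the highest neutrophil sum and replicate 3 the highest Nfkbia level. Of 8 natural killer cell markers 7 fell, with sums of 129 to 687 and 31.9 to 50.5 FPKM. Of 8 monocyte markers 4 fell, while 3 of the 8 had log2 fold changes above 0. The monocyte sums were 348 to 606 and 294 to 469.9 FPKM. Ace made up much of them, with 158 to 186 FPKM in model and 177 to 191 FPKM in high dose. Nr4a1 had 206 FPKM in high dose replicate 2 and 25.9 to 78.4 FPKM in the other high dose libraries. Of 8 T cell markers none passed, with sums of 55.4 to 81.5 and 52.7 to 70.1 FPKM. Of 8 alveolar macrophage markers 1 rose, 1 fell and 6 did not pass, and 4 of the 8 had log2 fold changes above 0. All 7 B cell and all 7 dendritic cell markers had log2 fold changes above 0, with medians of 0.61 and 0.55, of which 1, the dendritic cell marker Itgae, passed. The part of these cells in the fall of Nfkbia was not tested, and in bulk tissue fewer cells of a type and less RNA per cell cannot be told apart.

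Nfkbiz encodes IkB-zeta, a nuclear member of the IkB family that adjusts which target genes are transcribed. It had 20.8, 17.2, 17.8 and 18.2 FPKM in the model libraries and 12.7, 13.04, 17.3 and 10.1 FPKM in the high dose libraries. In 3 of 4 high dose libraries it lay below every model library, and high dose replicate 3 lay within the model range. The log2 fold change was -0.47 ± 0.14 and did not pass (limma adjusted p = 0.0742), although it passed without high dose replicate 3 (-0.59, adjusted p = 0.0316).

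Tnfaip3 encodes A20, an enzyme that edits ubiquitin chains on signalling proteins and shuts down signals to NF-kB. Its level was 12.05, 8.45, 13.2 and 11.5 FPKM in model replicates 1 to 4 and 8.44, 8.60, 8.41 and 8.76 FPKM in high dose replicates 1 to 4. The high dose libraries were nearly equal, with a coefficient of variation of 1.89% against 17.9% in model, and model replicate 2 stood at the high dose level. The log2 fold change of -0.35 ± 0.12 did not pass (limma adjusted p = 0.113), and passed without model replicate 2 (-0.47, adjusted p = 0.00748).

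Tnf encodes tumour necrosis factor, the cytokine that gave the receptor family its name and both triggers and is induced by NF-kB. Summed over its rows it had 2.65, 2.78, 3.04 and 2.33 FPKM in model replicates 1 to 4 and 3.10, 1.06, 1.2497 and 1.31 FPKM in high dose replicates 1 to 4. High dose replicates 2 to 4 lay below every model library, whereas high dose replicate 1 lay above every model library. The log2 fold change was -0.52 ± 0.21 and did not pass (limma adjusted p = 0.158). Without high dose replicate 1 it was -0.74 and passed (adjusted p = 0.0180). With a pseudocount of 0.01 in place of 1 it was -0.81 (adjusted p = 0.144). The table lists Tnf on 4 rows with nearly the same values, between 0.571 and 0.885 FPKM per row in model and between 0.243 and 0.813 FPKM in high dose. Within a library the highest row was 1.04 to 1.47 times the lowest. Each row by itself had a mean under 1 FPKM over the 8 libraries, so Tnf was tested because its rows were added. Taking the first row alone, without the filter on low values, gave a log2 fold change of -0.26 (adjusted p = 0.317). How reads were divided among the 4 rows is not given in the sources used here, so the absolute level of Tnf is uncertain. Lta, Ltb and Nfkbil1, which neighbour Tnf in the genome, were listed on 4 rows each as well.

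**Figure D2:**
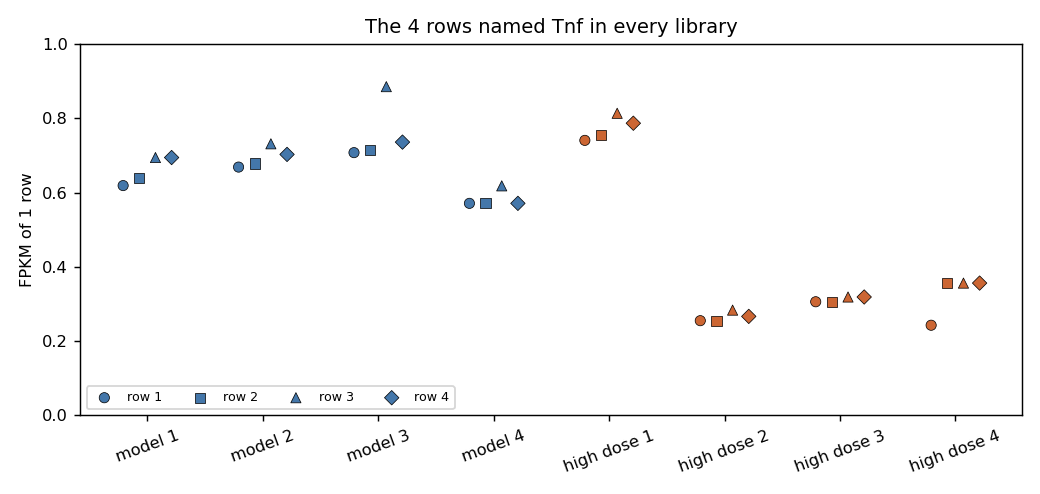
FPKM of each of the 4 rows named Tnf (y axis, from 0, marker shape gives the row) in the 4 model libraries (blue) and the 4 high dose libraries (orange). The rows lie at 0.740 to 0.813 FPKM in high dose replicate 1 and at 0.571 to 0.885 FPKM in model, and those of high dose replicates 2 to 4 at 0.243 to 0.356 FPKM.

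Rela encodes p65, the subunit that carries most of the activating capacity of classical NF-kB. Its level was 41.5, 36.6, 42.0 and 39.8 FPKM in model and 44.97, 47.1, 44.8 and 42.6 FPKM in high dose. The high dose libraries all lay above the model libraries, but by little: the log2 fold change was 0.16 ± 0.07 and did not pass (limma adjusted p = 0.212). Rel encodes c-Rel, a subunit used mainly in lymphocytes and myeloid cells. It had 5.30, 3.73, 4.35 and 4.27 FPKM in model and 5.64, 3.98, 3.93 and 4.21 FPKM in high dose. The groups overlapped for Rel, with only high dose replicate 1 above every model library. Its log2 fold change was 0.00 ± 0.13 (limma adjusted p = 0.988), with a sign that depended on the scaling (-0.044 with quantile normalization and -0.020 with median centring). Relb encodes the subunit of the slower route. With 13.5, 9.32, 11.5 and 12.4 FPKM in model and 13.8, 11.4, 13.1 and 12.4 FPKM in high dose it overlapped too (log2 fold change 0.12 ± 0.12, limma adjusted p = 0.587).

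Nfkb1 encodes the precursor p105, from which the DNA-binding subunit p50 is made. The groups overlapped, with 36.2, 32.7, 39.7 and 35.5 FPKM in model and 36.6, 34.5, 35.0 and 34.8 FPKM in high dose. The log2 fold change was -0.03 ± 0.08 (limma adjusted p = 0.861), and it was 0.018 without model replicate 3. Nfkb2 encodes p100, which is both an inhibitor and the precursor of p52 in the slower route. Its level was 12.6, 12.1, 15.2 and 13.6 FPKM in model and 17.1, 15.3, 18.2 and 15.9 FPKM in high dose. Every high dose library lay above every model library, the nearest pair being 15.3 and 15.2 FPKM. The log2 fold change of 0.29 ± 0.09 did not pass (limma adjusted p = 0.0847).

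Ptgs2 encodes cyclooxygenase 2, the inducible enzyme that starts prostaglandin synthesis and a classical NF-kB target. It had 4.09, 4.01, 4.27 and 3.66 FPKM in model and 6.44, 5.48, 6.87 and 6.42 FPKM in high dose. The groups were well apart, with the lowest high dose library above the highest model library. The model mean was 4.01 ± 0.253 and the high dose mean 6.30 ± 0.586 FPKM (SD, n = 4 per group), 1.57 times as high. Ptgs2 rose by 0.54 ± 0.10 (log2, SE, limma adjusted p = 0.0116). It passed in all 8 fits without 1 library, with adjusted p from 0.0128 to 0.0400. The rise of Ptgs2 and the fall of Nfkbia, both known targets of the pathway, went in opposite directions in the same libraries.

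**Figure D3:**
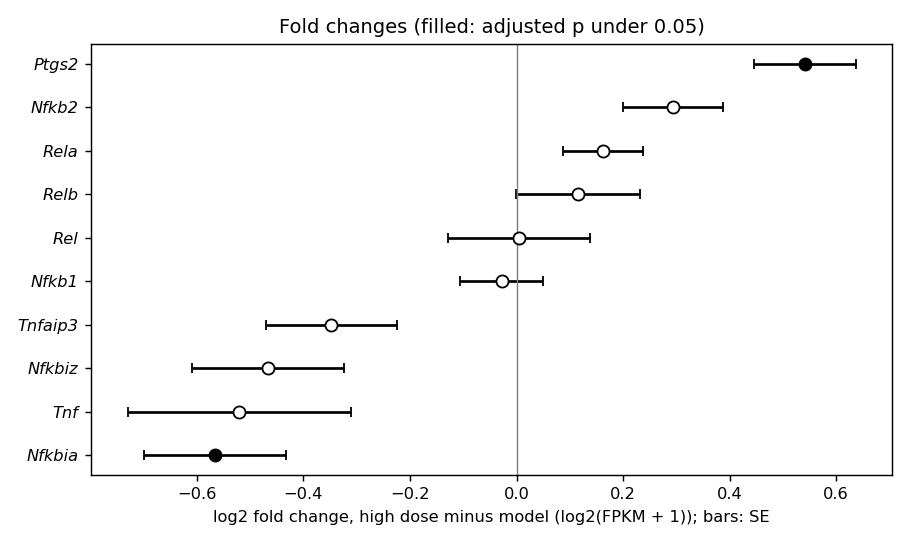
Log2 fold change, high dose minus model, of log2(FPKM + 1) for the 10 genes (x axis), with SE from the limma fit as bars and filled points for an adjusted p under 0.05. Nfkbia (-0.57) and Ptgs2 (0.54) are the filled points, and the subunits Rel and Nfkb1 lie at 0.00 and -0.03.

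Levels between genes are compared here in FPKM, a unit scaled by length. In model the order was Nfkbia, Rela, Nfkb1, Nfkbiz, Nfkb2, Relb, Tnfaip3, Rel, Ptgs2 and Tnf. The ranges of neighbours overlapped for Rela and Nfkb1, for Nfkb2 and Relb, for Relb and Tnfaip3, and for Rel and Ptgs2. In high dose Nfkb2 stood above Nfkbiz and Ptgs2 above Rel, but the ranges of both pairs overlapped. There the range of Rela (42.6 to 47.1 FPKM) no longer overlapped that of Nfkb1 (34.5 to 36.6 FPKM). Ratios within a library do not depend on how that library was scaled. The ratio of Nfkbia to Rela was 2.32, 2.40, 2.68 and 2.78 in model and 1.23, 1.71, 1.49 and 1.71 in high dose, with no overlap. The same held for Tnfaip3 to Rela, with 0.231 to 0.313 in model and 0.183 to 0.206 in high dose. Nfkbia and Tnfaip3 were thus lower per Rela transcript in every high dose library. Nfkbiz was set against another gene, Nfkb1, and this ratio overlapped, with 0.449 to 0.573 and 0.291 to 0.493. Its ratio to Rela was not computed, so this overlap does not show that Nfkbiz differed from Nfkbia and Tnfaip3 relative to Rela. The levels of Nfkbiz and Rela in every library are given above. Nfkb2 to Nfkb1, the precursor of the slower route against that of the classical one, was 0.348 to 0.384 in model and 0.443 to 0.519 in high dose. Relb to Rela overlapped, with 0.254 to 0.326 and 0.242 to 0.307. These ratios were picked with the levels known and are given with no test.

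**Figure D4:**
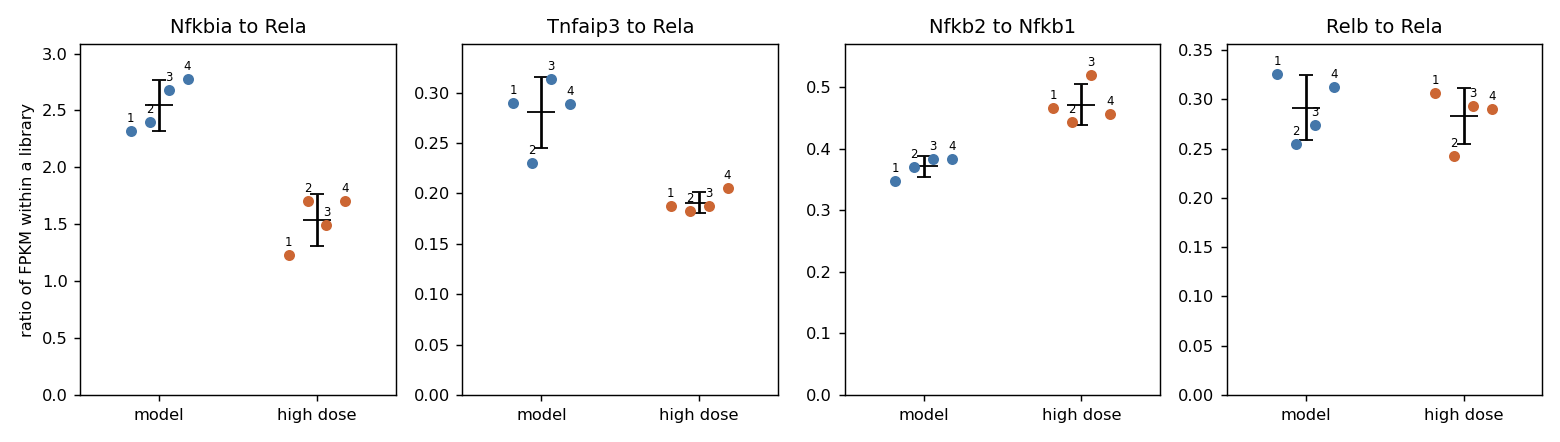
Ratio of FPKM of 2 genes within each library (y axis, from 0) in model (blue) and high dose (orange), with replicate numbers, mean and SD. Nfkbia to Rela and Tnfaip3 to Rela are lower and Nfkb2 to Nfkb1 is higher in all 4 high dose libraries. Relb to Rela overlaps, with 0.254 to 0.326 in model and 0.242 to 0.307 in high dose.

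Of 110 other genes of the pathway, in 7 lists of ligands, receptors, adaptors, kinases, inhibitors, targets and prostanoid enzymes, 101 were tested. In these 9 rose, 9 fell and 83 did not pass, with a median log2 fold change of -0.01. Of all genes tested 10.1% passed. The 9 that fell were spread over ligands, an adaptor, kinases, inhibitors and 1 target, and 8 of the 9 that rose were targets or prostanoid enzymes. Without 1 library the number that fell ranged from 4 (without model replicate 1, 3 or 4) to 17 (without model replicate 2), and was 5 without high dose replicate 3 or 4.

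Among 5 tested ligands 2 fell, 0 rose and 3 did not pass. Il1b, the cytokine of the inflammasome route, had 88.6, 59.1, 61.3 and 85.5 FPKM in model and 9.47, 36.9, 29.0 and 24.8 FPKM in high dose. The groups did not overlap, and high dose replicate 1, highest in Tnf, was lowest in Il1b. Its log2 fold change was -1.64 ± 0.37 (limma adjusted p = 0.0292). Tnfsf14, which encodes LIGHT, a ligand of the lymphotoxin beta receptor, had 7.90 ± 2.68 FPKM in model and 2.29 ± 0.540 FPKM in high dose (log2 fold change -1.41 ± 0.21, adjusted p = 0.00621). Il1a had 0.45 ± 0.18 and did not pass (adjusted p = 0.158), and 0.73 with a pseudocount of 0.01. Il1b missed the threshold without model replicate 1 (adjusted p = 0.0770), model replicate 3 (0.0694), model replicate 4 (0.0694), high dose replicate 3 (0.0568) or high dose replicate 4 (0.0630). It also missed with the replicate number as a block (0.0701) and when genes of low level were kept in the fit (0.0542). The first row per gene name, also with low genes kept, gave 0.0555, and Il1b has only 1 row. Neutrophils, whose marker sums are given above, also transcribe Il1b, and their part in its fall was not tested.

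Of 13 receptors 1 rose, 0 fell and 12 did not pass. Il1r1, the signalling receptor for interleukin 1, had 11.04, 11.5, 11.5 and 10.4 FPKM in model and 20.3, 13.4, 20.004 and 14.7 FPKM in high dose. Model libraries were within about 1 FPKM of each other, and all high dose libraries lay above them. It rose with a log2 fold change of 0.56 ± 0.14 (limma adjusted p = 0.0337). The call was lost without model replicate 1, 3 or 4 or high dose replicate 1, 3 or 4 (adjusted p from 0.0510 to 0.0922). It was lost too with the replicate block (0.0579) and with low genes kept (0.0715). The first row per gene name, also with low genes kept, gave 0.0731, and Il1r1 has only 1 row. Tnfrsf1b, a TNF receptor of leukocytes, had -0.55 ± 0.21 (adjusted p = 0.140, and 0.0233 without model replicate 2), and Il1rap, the partner chain of Il1r1, had -0.34 ± 0.15 (adjusted p = 0.181). Tnfrsf1a, the main TNF receptor of tissue cells, named after its values were seen, had 85.5 ± 16.5 and 86.5 ± 9.74 FPKM in model and high dose.

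Of 20 adaptors and ubiquitin ligases 1 fell, 0 rose and 19 did not pass. The one that fell was Birc3, a ubiquitin ligase of the TNF receptor complex and itself an NF-kB target, from 34.1 ± 6.20 to 21.3 ± 0.810 FPKM (log2 fold change -0.64 ± 0.13, limma adjusted p = 0.0166). As with Tnfaip3, its high dose libraries were close together, at 21.9, 20.1, 21.3 and 21.8 FPKM, below model libraries at 34.1, 25.8, 40.7 and 35.9 FPKM. Birc3 passed in all 8 fits without 1 library. Myd88, the adaptor of Toll-like and interleukin 1 receptors, had -0.59 ± 0.17 (adjusted p = 0.0564) and Rnf31, a ligase that builds linear ubiquitin chains, had -0.47 ± 0.14 (adjusted p = 0.0628). Both passed without model replicate 2 (adjusted p = 0.0226 and 0.00618).

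Of 11 kinases 3 fell, 0 rose and 8 did not pass. Ikbkb, the catalytic subunit of the IkB kinase in the classical route, fell from 32.6 ± 3.47 to 23.2 ± 1.42 FPKM (log2 fold change -0.47 ± 0.09, limma adjusted p = 0.0155, and 0.0537 with the replicate block). The other subunits of the same complex, named after their values were seen, had 27.4 ± 4.04 and 27.2 ± 1.93 FPKM for Chuk and 9.42 ± 1.29 and 8.46 ± 0.551 FPKM for Ikbkg in model and high dose. Map3k8, a kinase held inactive by p105, fell from 13.5 ± 2.56 to 7.13 ± 1.20 FPKM (-0.83 ± 0.16, adjusted p = 0.0143). Tbk1, an IkB kinase relative that also drives interferon genes, fell too (log2 fold change -0.46 ± 0.10, adjusted p = 0.0215). Ikbkb and Map3k8 passed in all 8 fits without 1 library. Tbk1 was lost without model replicate 1, 3 or 4 or high dose replicate 2, 3 or 4, with adjusted p from 0.0504 to 0.0641.

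Of 17 tested inhibitors outside the 3 described above, 2 fell, 0 rose and 15 did not pass. Nfkbid, which encodes the nuclear inhibitor IkB-NS, had 5.89 ± 0.692 FPKM in model and 3.98 ± 0.688 FPKM in high dose (-0.47 ± 0.13, limma adjusted p = 0.0476). Trim30a, an interferon-induced ubiquitin ligase that restrains Toll-like receptor signals, fell from 40.1 ± 11.6 to 17.99 ± 4.42 FPKM (-1.09 ± 0.23, adjusted p = 0.0220). Usp18, which removes the ubiquitin-like protein ISG15, had -0.29 ± 0.10 (adjusted p = 0.108). The calls of Nfkbid and Trim30a were lost without model replicate 1, 3 or 4 or high dose replicate 2, 3 or 4. The adjusted p there was 0.0850 to 0.131 for Nfkbid and 0.0514 to 0.0626 for Trim30a. Nfkbid was lost too with the replicate block (0.107) and with low genes kept (0.0895). The first row per gene name, also with low genes kept, gave 0.0916, and Nfkbid has only 1 row.

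Of 24 tested targets outside the 10 genes 6 rose, 1 fell and 17 did not pass. Icam1, an adhesion molecule for leukocytes, had 135, 124, 135 and 127 FPKM in model and 204, 187, 214 and 171 FPKM in high dose. The groups lay far apart relative to their spread, with a log2 fold change of 0.57 ± 0.09 (limma adjusted p = 0.00900). Lcn2, an iron-binding protein of epithelium and neutrophils, rose from 140.1 ± 29.2 to 363 ± 121 FPKM (1.33 ± 0.25, adjusted p = 0.0147). Nos2, the inducible nitric oxide synthase, rose from 0.837 ± 0.231 to 2.44 ± 0.415 FPKM (0.91 ± 0.14, adjusted p = 0.00712). At a pseudocount of 0.01 the change of Nos2 was 1.56. Plau, a plasminogen activator, Cxcl1, a neutrophil-attracting chemokine, and Ier3, an early response gene, rose by 0.87 ± 0.15 (adjusted p = 0.0118), 0.73 ± 0.17 (adjusted p = 0.0281) and 0.80 ± 0.19 (adjusted p = 0.0301). Cxcl1 had 1.13 with a pseudocount of 0.01. Mmp9, a gelatinase that neutrophils store and 1 of the 10 neutrophil markers counted above, fell by 1.78 ± 0.37 (adjusted p = 0.0215). Icam1, Lcn2, Nos2 and Plau passed in all 8 fits without 1 library. Cxcl1 was lost without model replicate 1, 3 or 4 or high dose replicate 1 or 4 (adjusted p from 0.0510 to 0.0668), Ier3 without model replicate 1, 3 or 4 or high dose replicate 2, 3 or 4 (0.0626 to 0.0856) and Mmp9 without model replicate 1, 3 or 4 (0.0523 to 0.0676). With low genes kept, Cxcl1 and Ier3 were lost as well (0.0557 and 0.0637). The first row per gene name, also with low genes kept, gave 0.0566 and 0.0568. Cxcl1 has only 1 row and Ier3 has 3. Some markers of alveolar epithelium, but not of all tissue cells, were also higher in high dose. Of 7 alveolar type 2 cell markers 3 rose and 0 fell, with sums of 10660 to 15817 FPKM in model and 14249 to 20744 FPKM in high dose. Of 6 alveolar type 1 cell markers 2 rose, Aqp5 and Pdpn, and 0 fell, with sums of 1257 to 1741 and 1507 to 2073 FPKM. Hopx and Clic5, 2 of the 6, had log2 fold changes below 0 (-0.07 and -0.19) and did not pass. All 7 fibroblast markers had log2 fold changes above 0, with a median of 0.51, but none passed, and their sums were 221 to 534 and 498 to 673 FPKM. Of 7 endothelium markers 0 passed and 3 had log2 fold changes below 0, with sums of 721 to 963 and 734 to 1008 FPKM. Of 6 airway epithelium markers 0 passed and 3 were below 0, with sums of 17975 to 46205 and 10198 to 25558 FPKM. The part of these cells in the rises was not tested.

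Of 11 tested genes of prostanoid synthesis, breakdown and reception, 2 rose besides Ptgs2, 0 fell and 9 did not pass. Ptgs1, the constitutive cyclooxygenase, had 9.53, 14.1, 17.9 and 8.36 FPKM in model and 40.9, 30.5, 41.7 and 37.8 FPKM in high dose. It rose with a log2 fold change of 1.57 ± 0.22 (limma adjusted p = 0.00519), and the ratio of Ptgs1 to Ptgs2 was 2.28 to 4.19 in model and 5.56 to 6.36 in high dose. Ptges, the inducible enzyme that makes prostaglandin E2 from the product of the cyclooxygenases, rose from 5.23 ± 0.491 to 13.4 ± 3.78 FPKM (1.18 ± 0.17, adjusted p = 0.00514). Hpgd, which inactivates prostaglandins, had 274 ± 49.7 and 225 ± 33.8 FPKM (-0.28 ± 0.16, adjusted p = 0.317). Ptgs1 and Ptges passed in all 8 fits without 1 library.

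**Figure D5:**
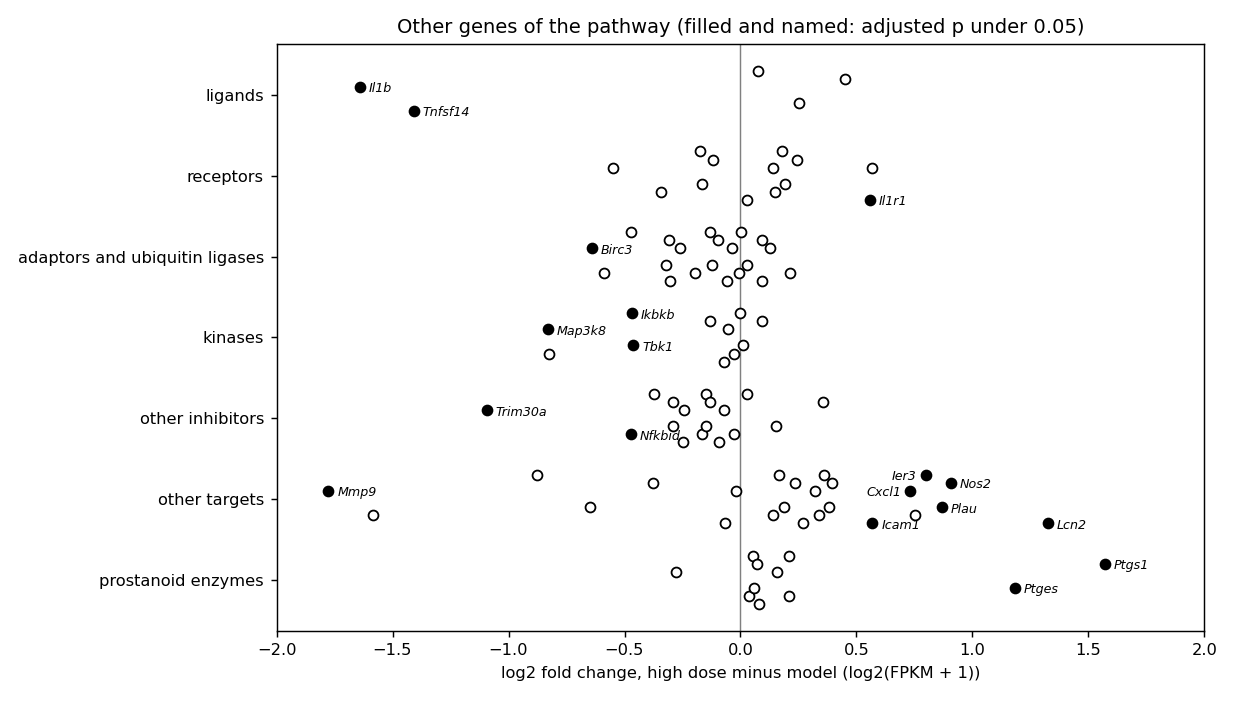
Log2 fold change, high dose minus model, of log2(FPKM + 1) for the 101 tested genes of the pathway outside the 10 (x axis), by list. Filled, named points passed at an adjusted p under 0.05: 9 at the left from Ikbkb, Tbk1 and Nfkbid (-0.46 to -0.47) down to Mmp9 (-1.78), and 9 at the right from Il1r1 (0.56) to Ptgs1 (1.57). Vertical offsets within a list only separate the points.

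For Tnf, Nfkb1 and Nfkbia the genes with the most similar course over the 8 libraries were looked up among all genes tested. Likeness was the mean absolute difference of log2(FPKM + 1) after centring each gene on its own mean. Closest to Nfkbia was Irf2, an interferon regulatory factor, at 0.07, with means of 45.1 FPKM in model and 30.1 FPKM in high dose, followed by Gm35853 and Frat1 at 0.08 each. Mertk, a receptor for clearing dead cells, was closest to Tnf at 0.13, with 21.1 and 15.7 FPKM, ahead of Mettl21e (0.14) and Klf10 (0.15). Those closest to Nfkb1 were Srgap3, Clint1 and Zfp407, all at 0.02 or 0.03. Srgap3 (1.12 and 1.05 FPKM in model and high dose) and Zfp407 (1.83 and 1.81 FPKM) lay near the filter of 1 FPKM. Nfkb1 differed little between libraries, so by this measure any gene that varied little is close to it.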

How the data were processed

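RNA came from a column kit and libraries from a SMARTER kit for messenger RNA, per the labels' protocols. The authors deposited 1 table of 48632 rows with 1 column per library and replicates not pooled. The values are taken as FPKM as deposited by the authors (reads scaled by length and library), a unit inferred from the values because the header names none. Reads were placed on mm39 according to the submitters' processing notes. Aligner, counting tool, its handling of strand and the annotation are not given in the sources used here, so reads of overlapping or antisense transcripts cannot be told apart. The table holds no read counts, so depth is unknown and precision rests on the 4 libraries of a group.

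Rows sharing a gene name were added (41617 rows, 39290 names). The 7015 rows with no name, 50.0% to 65.2% of the FPKM of a library, were left out. The 14418 genes averaging 1 FPKM or more were fitted on log2(FPKM + 1) with limma 3.58.1 in R 4.3.3. Group was the only term, with trended, robust variance moderation. Two-sided p-values were adjusted over all genes tested (Benjamini-Hochberg, threshold 0.05). The scale understates changes of low genes such as Tnf. The fit was tested on simulated data. Plots used Python 3.11.15 and matplotlib 3.10.9.

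The members and lists were chosen with earlier results of these data known. Of each pathway list the 3 genes with the smallest p and every gene that passed are named, and for 3 of the 10 genes the 3 most similar genes. The alternatives tried were median centring, quantile normalization, a fit with no trend, other filters, pseudocounts of 0.1 and 0.01, the replicate number as a block, rows not summed, and each library left out. The first row per gene name was added after the rows of Tnf were seen and was fitted with low genes kept. A gene on 1 row has the same values there as in the other fit with low genes kept. Calls it lost in both are not separate losses. Model replicate 4 was far from the rest on principal component 2 (-34.2 against -10.3 to 29.1), and Spearman correlations between libraries were 0.895 to 0.975 across genes.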

Additional observations from a re-analysis of the deposited data

Results flagged for a closer look

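High dose replicate 1 stood above the other 3 high dose libraries, by more than a gap test for 4 samples allows, in 5 of the 35 genes of the text that were looked at, each in both groups (70 groups in all). Tnf was 3.10 FPKM there against 1.06 to 1.31 FPKM. Rel was 5.64 FPKM against 3.93 to 4.21 FPKM. Tnfrsf1b was 26.1 FPKM against 17.5 to 17.7 FPKM, Tbk1 22.2 FPKM against 17.7 to 18.2 FPKM, and Usp18 18.1 FPKM against 14.2 to 14.8 FPKM. Chance alone flags about 1 in 20 groups, and the genes share their libraries, so these are not 5 independent signs.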

How the results depend on the processing

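No alternative reversed a called gene among the 10 genes and the 25 named pathway genes. Other called genes were not checked for this. Ptgs2 passed under all 18 alternatives (0.50 to 0.65, adjusted p up to 0.0400). The fall of Nfkbia kept its size of -0.57 but missed the threshold with no low-value filter (adjusted p = 0.0611) and with the replicate block (0.0632). The first row per gene name, also with no filter, gave 0.0621, and Nfkbia has only 1 row. Rel turned to -0.044 with quantile normalization and -0.020 with median centring. Leaving out 1 library gave -0.64 to -0.47 for Nfkbia, -0.74 to -0.41 for Tnf, -0.59 to -0.35 for Nfkbiz, -0.47 to -0.27 for Tnfaip3, -0.095 to 0.080 for Rel and -0.073 to 0.018 for Nfkb1. Pathway genes that fell were 9, and 4 to 17 without 1 library. Genes called higher were 845, and 518 without the filter and 499 with the first row per gene name, also without the filter. They were 486 with the replicate block and 364 to 1178 without 1 library. Genes called lower were 616, and 329 to 970 without 1 library. The cause of these shifts was not tested. Tnf and Rel gave no value with a minimum mean of 5 FPKM, and Tnf gave none on rows not summed. For the 25 named pathway genes, 57 of 445 alternative fits lost a call, 5 gained 1 and 0 reversed. The 445 include fits of genes that did not pass in the main fit and so had no call to lose. Same-numbered libraries did not deviate together in every pair (r of deviations -0.09 to 0.28). These few correlations cannot exclude pairing, and the labels do not state it. Whether the numbers pair the samples is unknown, so calls lost under the block are given without a reading.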

Other observations

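Values of 2 pathway genes below the filter of 1 FPKM follow, picked from 9 such genes because their groups did not overlap, which 17.7% of the genes above the filter also showed. The share among genes below it was not computed. Il6, the cytokine that drives the acute phase response, had 0.125, 0.335, 0.352 and 0.395 FPKM in model and 0.867, 1.62, 2.52 and 0.854 FPKM in high dose. Without the filter its log2 fold change was 0.87 ± 0.21 and did not pass (limma adjusted p = 0.0623). Tnfsf11, the ligand RANKL of the slower route, had 0.143, 0.146, 0.202 and 0.116 FPKM in model and 0.515, 0.355, 0.435 and 0.544 FPKM in high dose, and passed without the filter (0.34 ± 0.06, limma adjusted p = 0.0296).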
